A study of Mus musculus with 28 samples.

Results

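The mitotic cell cycle genes examined here were Mki67, Top2a, Ccnb1, Ccna2, Cdk1, Aurkb, Bub1, Plk1, Birc5 and Kif11, a set of 10 of the 20660 gene symbols named on the array. They were chosen by name, as genes whose transcripts accumulate in dividing cells, and were covered by 17 of the 55681 probes. Where a gene had several probes, the probe with the highest mean level over all arrays was used. In the brain at 3 weeks after birth their detection ranged widely. Birc5 and Plk1 were well above background in 28 of 28 fractions, Mki67 in 25, Ccna2 in 20 and Ccnb1 in 18, whereas Cdk1 was so in 5, Top2a and Kif11 in 4, Aurkb in 2 and Bub1 in 0.

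Cells that leave the cell cycle stop making most of these transcripts. In cycling cells the cyclins and their partner kinase Cdk1 drive entry into mitosis, Plk1, Aurkb and Bub1 are kinases that control spindle assembly and chromosome attachment, Birc5 (survivin) is the partner of Aurkb in the chromosomal passenger complex, and Kif11 is the motor that separates the spindle poles. In the brain of a weaned mouse, division is known to persist in the wall of the lateral ventricles and the rostral migratory stream, in the dentate gyrus, and among oligodendrocyte precursors and microglia, while the precursors of cerebellar granule cells finish dividing at about this age.

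The samples were the brains of 3 male C57BL/6J mice, 3 weeks old and kept free of pathogens, with no treatment named. Transcriptome Tomography slices a frozen brain along 1 axis and pools neighbouring slices into consecutive fractions. Mouse 1 gave 12 coronal fractions, mouse 2 gave 6 horizontal fractions and mouse 3 gave 10 sagittal fractions, and each fraction was hybridised to 1 array, so that no position was replicated and mouse and plane cannot be told apart. Sources differ on the thickness of a fraction (100 slices of 5 micron by the labels), and the label of coronal fraction 12 names a further fraction pooled into it, so positions are given as fraction numbers only. The labels do not name the ends of a series, but cerebellar granule cell markers were highest in coronal fraction 2 and migrating neuroblast and Dlx lineage markers, abundant in the olfactory bulb, in coronal fraction 12, which places fraction 1 at the caudal end, and pituitary markers were highest in horizontal fraction 6, at the ventral end. Levels are given on a log2 scale on which 0 is the 75th percentile of the background-corrected probe signals of an array, and a difference of 1 is a doubling. Levels of different probes are not compared, since probes differ in their response.

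The promoters of 5 of the genes described below are shown because transcripts of this class are known to be controlled together through short promoter elements, the CCAAT box and the cell cycle genes homology region, here searched on both strands as CCAAT for the former and as TTTGAA or its variant TTTAAA for the latter (the variant reads the same on both, and a CCAAT match can share end bases with a match of another motif). RefSeq promoter windows of build GRCm38.p6, from 250 bases before to 50 after the annotated start, were held for 8 of the 10 genes, Ccna2 and Aurkb being the others. CCAAT was in 7 of the 8 windows against 37.4% of 32851 windows of that length, with 5 of the 8 holding more than 1 match against 11.7% of all windows. TTTGAA was in 5 against 17.9%, TTTAAA in 3 against 13.2%, and the GC-rich element GGCGGG in 8 against 35.3%. These are matches of letters, not sites shown to be used. The 150 bases before the start that the promoter table uses are printed 5′ to 3′ on the strand of the gene (for Mki67 and Top2a this start lies inside the annotated span of the gene, so that part of the stretch is within it), with matches of those 3 motifs in either orientation in capitals, and the GC-rich element left in lower case. The windows are chr7:135716380-135716529, minus strand, for Mki67, chr11:99024190-99024339, minus strand, for Top2a, chr13:100786487-100786636, minus strand, for Ccnb1, chr7:122159285-122159434, plus strand, for Plk1, and chr11:117849087-117849236, plus strand, for Birc5, whose stretch holds no match.
Mki67: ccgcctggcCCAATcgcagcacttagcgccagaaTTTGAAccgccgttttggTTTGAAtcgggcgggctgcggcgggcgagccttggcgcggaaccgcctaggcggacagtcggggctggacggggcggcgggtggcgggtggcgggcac
Top2a: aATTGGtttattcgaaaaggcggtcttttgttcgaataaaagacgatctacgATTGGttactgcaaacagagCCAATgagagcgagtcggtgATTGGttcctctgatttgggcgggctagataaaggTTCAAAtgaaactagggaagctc
Ccnb1: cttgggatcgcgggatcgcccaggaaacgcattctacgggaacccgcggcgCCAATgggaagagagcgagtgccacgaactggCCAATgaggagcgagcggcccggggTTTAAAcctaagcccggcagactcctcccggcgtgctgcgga
Plk1: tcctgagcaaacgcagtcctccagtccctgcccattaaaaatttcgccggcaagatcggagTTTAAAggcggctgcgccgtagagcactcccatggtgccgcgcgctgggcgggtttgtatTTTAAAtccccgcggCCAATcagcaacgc
Birc5: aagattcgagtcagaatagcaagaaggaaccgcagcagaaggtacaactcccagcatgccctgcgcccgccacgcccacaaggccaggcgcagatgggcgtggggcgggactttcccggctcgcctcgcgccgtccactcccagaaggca

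Mki67, the nuclear protein that marks cycling cells, rose from the caudal brain to coronal fraction 9 and was lower again in the most rostral fractions. Its levels in coronal fractions 1 to 12 were -3.60, -5.64, -4.64, -4.04, -2.42, -1.90, -1.89, -1.94, -0.80, -1.81, -2.75 and -2.80, of which those of fractions 2 and 3 were not well above background. Fraction 9 thus stood at least 13.1-fold above fraction 2, taking for fraction 2 the dimmest signal that still counted as well above background there, since its own was dimmer. The gap from fraction 9 to the next, fraction 10, was 1.01. Probes that were not well above background on any array also shifted along this series, with medians of -0.47 to -0.32 in fractions 3 to 6, 0.30 in fraction 8, 0.21 in fraction 9, 0.78 in fraction 10, 0.88 in fraction 11 and -0.28 in fraction 12, relative to their own median. The part of this shift in the coronal profiles was not tested. A further Mki67 probe followed the same course (Pearson r = 0.86 over 28 fractions), but it was highest in fraction 10 at -0.58 and read -1.17 in fraction 9, so the order of fractions 9 and 10 is not settled by these arrays. In a bulk fraction, a lower level can mean fewer cells that make the transcript or less of it per cell, which cannot be told apart.

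Top2a, the topoisomerase that untangles sister chromosomes, had its highest coronal level in the same fraction, -3.23 in fraction 9, followed by -4.46 in fraction 8. It was well above background only in fraction 9 of the coronal series, only in fraction 3 of the horizontal series and in sagittal fractions 3 and 4. In the coronal and horizontal series Top2a therefore entered the tests through the fraction in which it was highest. In the sagittal series the 2 detected fractions read -5.01 and -5.00, while its highest, fraction 7 (-4.22), was not well above background. Its coronal fraction 9 was at least 2.83-fold above fraction 4.

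**Figure D1:**
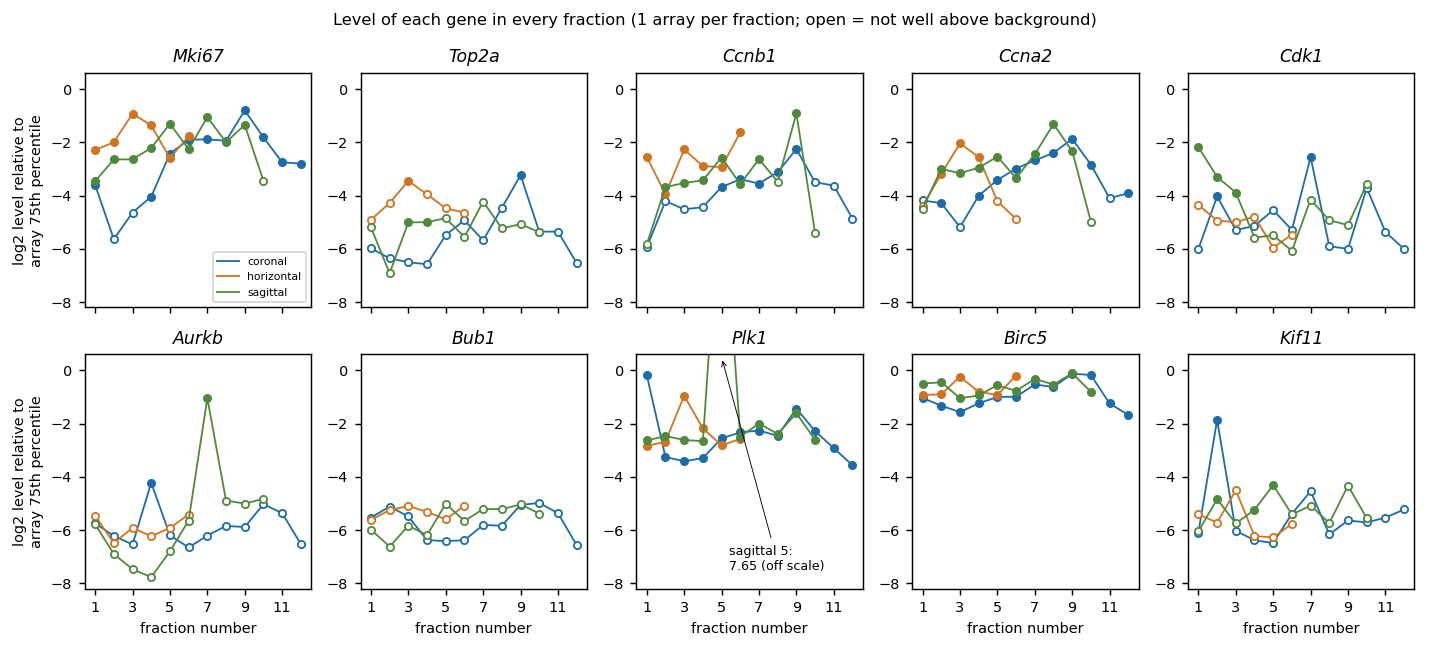
Level of each of the 10 genes (log2 relative to the 75th percentile of the array) by fraction number in the coronal, horizontal and sagittal series, 1 array per fraction, with open circles where the probe was not well above background. Mki67, Top2a, Ccnb1, Ccna2 and Birc5 were highest in coronal fraction 9, and the Plk1 value of 7.65 in sagittal fraction 5 lies beyond the axis.

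The cyclins peaked in the same coronal fraction. Ccna2, cyclin A2, which acts from S phase to early mitosis, read -4.18, -4.28, -5.19, -4.00, -3.41, -2.98, -2.68, -2.40, -1.87, -2.83, -4.10 and -3.90 from coronal fraction 1 to 12, with fractions 1, 3 and 11 not well above background. The level climbed step by step from fraction 3 to fraction 9, at least 6.71-fold in all. Ccnb1, cyclin B1, the partner of Cdk1 at mitotic entry, was well above background in fractions 5 to 9 alone, where it read -3.68, -3.38, -3.55, -3.12 and -2.25, and its fraction 9 was at least 3.62-fold above fraction 1. The other 2 probes of Ccnb1 were not well above background in any fraction. Cdk1 itself was well above background in coronal fractions 2 and 7 and in sagittal fractions 1 to 3, at -4.03, -2.55, -2.18, -3.29 and -3.88. By the probe used, it did not share the course of the cyclins. The other 2 probes of Cdk1 did not follow the one used (r of 0.02 at most), and neither was well above background in a fraction where it was. A further Cdk1 probe, well above background in coronal fraction 5 alone of that series, was higher in the middle. It read -6.73 in coronal fraction 2, -4.29 in fraction 7, -4.51 in fraction 9 and -6.81 in fraction 12.

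Birc5 and Plk1 could be followed in every fraction. Birc5 read between -1.57 and -0.99 in coronal fractions 1 to 6, and from fraction 7 to 12 it read -0.53, -0.63, -0.13, -0.17, -1.24 and -1.68, high in fractions 9 and 10 alike and low at both ends. Fraction 9 was 2.93-fold above fraction 12. A further Birc5 probe, well above background in 6 fractions, was highest in coronal fraction 9 as well, at -3.29 (r = 0.74 with the probe used), and the remaining one, not well above background in any coronal fraction, was highest in fraction 10 at -3.74, with -4.17 in fraction 9 (r = 0.76). Plk1 read -3.26 to -3.57 in fractions 2 and 12 and -1.44 in fraction 9, but its highest coronal level was -0.17 in fraction 1, where fraction 2 beside it read -3.26.

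The kinases Aurkb and Bub1 and the motor Kif11 gave almost no signal. Bub1, read by 10 spots per array, was not well above background on any array, and its levels lay between -6.63 and -4.98. Aurkb was well above background in coronal fraction 4 (-4.22) and sagittal fraction 7 (-1.04) alone. Kif11 was so in coronal fraction 2 (-1.86) and in sagittal fractions 2, 4 and 5 (-4.84, -5.24 and -4.31). The high readings of Aurkb in sagittal fraction 7 and of Kif11 in coronal fraction 2 each came from 1 spot with no like value in a neighbouring fraction.

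Which of these profiles changed with position was tested in limma by an F-test on a smooth curve (a spline) through the fractions of a plane. Adjustment was by Benjamini-Hochberg over the 32364 probes that each plane detected well above background at least once. Of the 10 genes, 6 entered this test, namely Mki67, Top2a, Ccnb1, Ccna2, Birc5 and Plk1. The other 4 passed no such filter and were not tested. Since no position was replicated, the scatter around the curve is the only error, and these p-values measure smoothness along 1 brain rather than differences between animals.

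In the coronal series 4 of the 5 genes other than Top2a changed with position at an adjusted p below 0.05, against 33.7% of all probes tested. Top2a passed as well, which is no support, since it was well above background only in the fraction where it was high. Ccnb1, among these 4, was well above background only in fractions 5 to 9, around its highest level, so its call is no support either. The calls of Mki67, Ccna2 and Birc5 do not have this limit. It holds for each coronal count below that includes Ccnb1. The fitted curve spanned 3.36 for Mki67 (adjusted p = 0.0087), 2.51 for Ccnb1 (adjusted p = 0.0087), 2.19 for Top2a (adjusted p = 0.019), 2.19 for Ccna2 (adjusted p = 0.0047) and 1.36 for Birc5 (adjusted p = 0.0081), while for Plk1 it spanned 2.47 (adjusted p = 0.062). The median span of the 5 genes other than Top2a was 2.47, beside 0.90 over all probes tested. The fitted curve was highest in fraction 9 for Mki67 and in fraction 8 for Ccnb1, Top2a, Ccna2 and Birc5. Over all 10910 probes called, 23.3% had their fitted maximum in fractions 8 to 10.

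The slides were not independent of position. Coronal fractions 1 and 2 were on 1 slide, fractions 3 to 10 on another, and fractions 11 and 12 on yet another. With the slide as an added term, 0 of the 6 genes were called (adjusted p of 0.066 for Ccna2, 0.096 for Birc5, 0.22 for Top2a, 0.23 for Mki67 and for Ccnb1 and 0.44 for Plk1), 4 of the 5 other than Top2a had an unadjusted p below 0.05, against 16.7% of all probes, and 0.745% of all probes were called. Within fractions 3 to 10 on their shared slide, Ccna2 (adjusted p = 0.018), Mki67 (adjusted p = 0.026) and Birc5 (adjusted p = 0.026) were called, 3 of the 6 against 12.9% of all probes. A curve with 1 degree of freedom fewer called Mki67, Ccnb1 and Ccna2, again 3 of the 6, against 38.5% of all probes, a share near the background. Leaving out any 1 of the 12 fractions kept the same 5 calls, against 24.5% to 34.4% of all probes. Top2a and Ccnb1, whose calls are no support, are among the 5. Plk1 was added in 3 cases, without fractions 1, 2 or 8. Spans of Mki67 ran from 2.79 to 4.27 over the 12 fits.

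**Figure D2:**
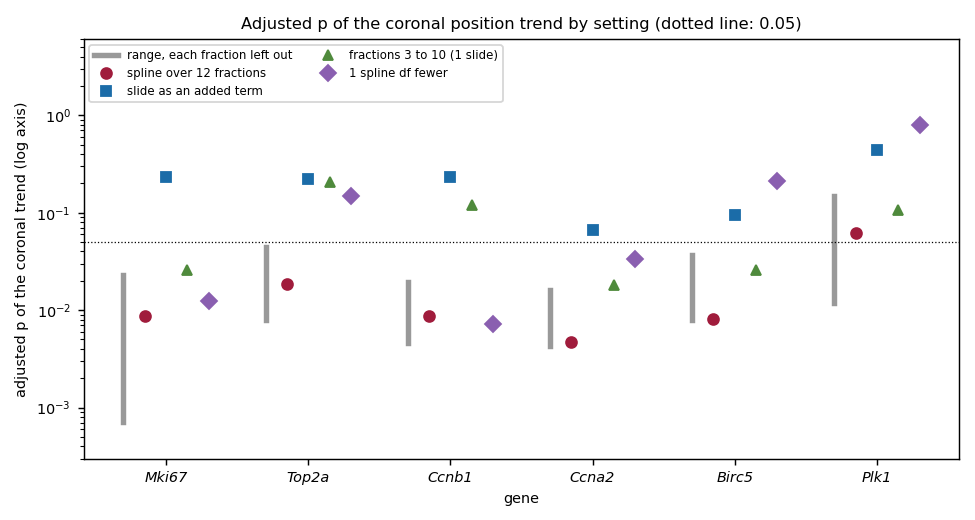
Adjusted p of the coronal position trend (limma, log axis) for each of the 6 genes tested, with the spline over 12 fractions, with the slide as an added term, within fractions 3 to 10 and with 1 spline degree of freedom fewer, beside the range over fits that leave out 1 fraction each. With the slide term all 6 lie above the dotted line at 0.05, and Ccna2 is closest to it at 0.066.

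A plain split of the coronal series called none of the 6 genes. Rostral fractions 8 to 12 minus fractions 1 to 7 gave 1.43 ± 0.65 (SE) for Mki67 (adjusted p = 0.23), 0.94 ± 0.49 for Top2a, 0.80 ± 0.48 for Ccna2, 0.77 ± 0.48 for Ccnb1, 0.33 ± 0.28 for Birc5 and -0.06 ± 0.53 for Plk1, in limma over 5 and 7 fractions. Of the 6, 1 (Mki67) had an unadjusted p below 0.05, against 21.4% of all probes, a share near the background. Of all probes 2.9% were called, 0.964% higher and 1.94% lower in the rostral fractions. Within fractions 3 to 10 on 1 slide, where fractions 8 to 10 are set against 3 to 7, the differences of the 5 genes other than Top2a were above 0, from 0.71 ± 0.36 (Plk1) to 1.46 ± 0.70 (Mki67), with 0 called and 3 (Ccnb1, Ccna2 and Birc5) at an unadjusted p below 0.05, which 14.9% of all probes had. Top2a gave 1.49 ± 0.54, in a split whose rostral arm holds the one coronal fraction in which it was well above background.

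Along the dorsal to ventral axis Mki67, Ccna2 and Plk1 were highest in fraction 3. Mki67 read -2.29, -1.99, -0.92, -1.36, -2.59 and -1.77 from horizontal fraction 1 to 6, Ccna2 read -4.38, -3.19, -2.03, -2.55, -4.21 and -4.88, and Plk1 read -2.85, -2.67, -0.95, -2.18, -2.81 and -2.58. Top2a also had its highest level there (-3.45), the one horizontal fraction in which it was well above background, while Ccnb1 (-1.62) and Birc5 (-0.20) were highest in fraction 6 and had fraction 3 next or nearly level (-2.26 and -0.24). Fraction 3 held the highest level of 3 of the 5 genes other than Top2a and of 12.4% of all probes tested. Fraction 6 held that of the other 2 and of 30.5% of all probes, and dim probes read 0.76 above their own median there. Of these profiles, that of Ccna2 was called (span 2.79, adjusted p = 0.031), 1 of 6 against 15.8% of all probes, a share near the background. Ccna2 was well above background in horizontal fractions 2 to 4 alone, where it was highest, so it entered this test through them and its call is no support. Its readings in fractions 1, 5 and 6, and so its span, are not exact. The call was lost when any of fractions 1, 2, 3, 4 or 6 was left out (adjusted p up to 0.11), with normexp background correction and with a stiffer curve. Without these fractions in turn, 6.84%, 10.3%, 0%, 0% and 4.13% of all probes were called. With normexp 28% were, and with the stiffer curve 0.00309%. Where almost no probe was called, the loss is not particular to Ccna2. All 6 fractions were on 1 slide, so no slide term could be fitted. Scaled to the array median, fraction 3 held the highest level of all 6 genes and 4 were called, but the same scaling raised the share of all probes called to 59.8%.

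From side to side, the genes were not called. Mki67 read -3.46, -2.64, -2.64, -2.21, -1.30, -2.25, -1.05, -1.99, -1.34 and -3.44 from sagittal fraction 1 to 10, low at both lateral ends and high in fractions 5, 7 and 9, with fraction 10 not well above background (span 1.91, unadjusted p = 0.034, adjusted p = 0.12). Ccna2 was highest in fraction 8 (-1.31), and Ccnb1 (-0.91) and Birc5 (-0.11) in fraction 9. Fractions 1 to 4 were on 1 slide and fractions 5 to 10 on another. Of the 6 genes 0 passed the test, with or without a slide term, against 14.7% of all probes (7.79% with the term). Without the term 1, Mki67, had an unadjusted p below 0.05, which 32.9% of all probes had. Without fraction 9 or without fraction 10, Mki67 and Ccnb1 were called, 2 of 6, against 38.8% and 47.1% of all probes. Fraction 9 stood apart among these arrays: probes that were not well above background anywhere read 1.25 higher there than their own median, and over all arrays this shift ran from -1.51 in sagittal fraction 4 to that value, and Ccnb1 and Birc5 were highest there. The part of this shift in the sagittal levels was not tested.

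In the same series Plk1 read 7.65 in fraction 5 and between -2.66 and -1.61 in the other 9 fractions. The 22 spots around it on that array were raised too, by a median of 1.55 above their usual level, the highest such median around any reading of the 10 genes that stood more than 2 above its probe's median. With that spot set to missing, the Plk1 span fell from 4.09 to 0.57 (adjusted p = 0.56). Fractions 4 to 7, in the middle of the series, minus the 6 lateral fractions gave 0.88 ± 0.44 (SE) for Mki67, 0.56 ± 0.39 for Top2a, 0.76 ± 0.80 for Ccnb1, 0.39 ± 0.63 for Ccna2 and -0.08 ± 0.21 for Birc5, and for Plk1 2.51 ± 1.73, or 0.00 ± 0.27 without that spot. Of these 0 were called and 0 had an unadjusted p below 0.05, which 24.9% of all probes had. Of all probes 0.148% were called, 0.133% higher and 0.0154% lower in the middle fractions.

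Between the 3 brains, none of the 6 genes passed the test. Mki67 averaged -2.85 ± 1.39 (SD, n = 12) over coronal, -1.82 ± 0.61 (n = 6) over horizontal and -2.23 ± 0.84 (n = 10) over sagittal fractions, and Top2a averaged -5.54 ± 0.99, -4.28 ± 0.52 and -5.24 ± 0.69. In limma 0 of the 6 genes were called against 1.63% of all probes. Only 1, Top2a, had an unadjusted p below 0.05 (adjusted p = 0.17), which 15.2% of all probes had. With the slide as an added term Mki67 was called (adjusted p = 0.045), 1 of 6, against 5.97% of all probes. Coronal fractions 1 and 2 shared a slide with the horizontal series, and coronal fractions 11 and 12 with sagittal fractions 5 to 10. That fit therefore compares brains through these coronal end fractions, where Mki67 read -3.60, -5.64, -2.75 and -2.80. The fractions of a brain are different tissue rather than replicates, so this test sets brains against the spread along an axis.

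Among themselves, the 5 genes well above background in at least 14 fractions (Mki67, Ccnb1, Ccna2, Birc5 and Plk1) had pairwise Pearson correlations of 0.19 to 0.72 over the fractions (10 pairs, median 0.56, Plk1 without its raised spot). The closest pair was Mki67 with Ccna2 (r = 0.72) and the loosest Ccnb1 with Plk1 (r = 0.19). Within the coronal series the median was 0.66 and 1 pair, Ccnb1 with Plk1, lay below 0 (r = -0.06). Within the horizontal series the median was 0.64 and 1 pair, Ccnb1 with Ccna2, lay below 0 (r = -0.32). In the sagittal series the median was 0.77, with 0 pairs below 0. These values are descriptions over 28 fractions or fewer that share arrays and scaling.

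Other genes of mitosis changed along the coronal series about as often as all probes. Of 64 further genes of the spindle, kinetochore, condensin, cytokinesis and mitotic transcription factors, 45 entered the test and 17 (37.8%) were called, beside 33.7% of all probes, with a median span of 1.08. The largest spans were those of Melk, a mitotic kinase (3.05, adjusted p = 0.00082, highest in fraction 8), Cdca3, a trigger of mitotic entry (2.25, adjusted p = 0.0087, highest in fraction 8), and Anln, anillin, the scaffold of the cytokinetic ring that is also known from myelinating oligodendrocytes (2.12, adjusted p = 0.00094, highest in fraction 3). Of the 17, 11 had their fitted maximum in fractions 8 to 10, which held that of 23.3% of all probes called. Melk was well above background in 9 fractions of all series together. Whether it entered the test only through its high fractions was not checked, so its call is not taken as support. The lowest coronal levels of Melk (-6.66) and Cdca3 (-5.21) lay below the dimmest that counted as well above background in any coronal fraction (-4.78). Their spans are thus not exact, and the other calls among the 17 were not checked for this. In the rostral split Nusap1, a spindle protein, was higher by 1.16 ± 0.24 (SE, adjusted p = 0.028) and Anln lower (-1.62 ± 0.24, adjusted p = 0.011). The lowest coronal level of Nusap1 (-5.31) was also too dim to count as well above background, so its difference is not exact. With the slide as an added term 2 of the 45 were called along the coronal series (0.745% of all probes), within fractions 3 to 10 there were 6 (12.9% of all probes), and without coronal fraction 11 there were 9 (24.5% of all probes). Neither Nusap1 nor Anln was called in the rostral split with the slide term (adjusted p = 0.13 and 0.080), and Nusap1 was lost with normexp background correction (adjusted p = 0.052) and when coronal fraction 1, 2, 4, 10 or 11 was left out.

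Genes of DNA replication and the start of S phase gave 13 calls among 28 tested of 30 (46.4%, beside 33.7% of all probes). They were led by E2f8, a transcriptional repressor (span 2.38, adjusted p = 0.0026, highest in fraction 12). Next came Tk1, thymidine kinase (2.23, adjusted p = 0.019, highest in fraction 10, with its fitted curve highest in fraction 9). Uhrf1, which couples DNA methylation to replication, followed (1.98, adjusted p = 0.020, highest in fraction 9). E2f8 and Tk1 were well above background in 16 and 18 fractions of all series together. Their lowest coronal levels (-5.89 and -5.82) lay below the dimmest that counted as well above background in any coronal fraction (-4.78). The spans of E2f8 and Tk1 are thus not exact, and the other calls among the 13 were not checked for this. Of the 13, 7 had their fitted maximum in fractions 8 to 10 and 5 in fraction 12. Their median span of 0.82 was below that of all probes. With the slide term 0 of the 28 were called, within fractions 3 to 10 there were 3, and without fraction 2 or fraction 9 there were 8 and 7, beside 0.745%, 12.9%, 25.1% and 29.2% of all probes in these fits. G1 cyclins, inhibitors of the cyclin-dependent kinases and pocket proteins gave 5 calls among 15 tested of 17 (33.3%, beside 33.7% of all probes), with a median span of 0.81, and 1 of the 5 had its fitted maximum in fractions 8 to 10. Of these Ccnd2, cyclin D2, which is also made by some neurons, was highest in fraction 9 (span 2.82, adjusted p = 0.0053), whereas Cdkn1a (2.47, adjusted p = 0.00090) and Btg2 (0.97, adjusted p = 0.010), both known to restrain the cycle, were highest in fraction 12. Of the genes named here, Tk1 lost its call without fraction 9 (adjusted p = 0.051), Btg2 without fraction 12 (adjusted p = 0.066) and Uhrf1 with the mean of its probes (adjusted p = 0.40). With the slide term 0 of the 15 were called, within fractions 3 to 10 there were 2, and without fraction 12 there were 3, beside 0.745%, 12.9% and 32.8% of all probes.

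Along the horizontal axis these lists were called in 10 of 45, 3 of 28 and 2 of 15 genes, against 15.8% of all probes, and along the sagittal axis in 4 of 45, 2 of 28 and 0 of 15, against 14.7%. These counts depended on the setting. The horizontal 10 of 45 became 31 with the array median, where 59.8% of all probes were called, and 20 with quantile normalization, where 21.2% were. It became 8 with normexp, where 28% were, and 0 without fraction 3, 4 or 6, where 0%, 0% and 4.13% were. A stiffer curve called 0 genes of all 3 lists, beside 0.00309% of all probes. With the array median the horizontal 3 of 28 became 20 and the 2 of 15 became 11. The sagittal 4 of 45 became 22 with normexp (44.2% of all probes), 19 without fraction 10 (47.1%), 12 without fraction 9 (38.8%) and 0 without fraction 1 (0%), and it stayed 4 with quantile normalization (8.12%). Where the levels were highest differed from the rest of the array by description. Horizontal fraction 3 held the highest level of 22 of the 45 other genes of mitosis and of 17 of the 28 replication genes. It also held that of 6 of the 15 G1 cyclins, inhibitors and pocket proteins, beside 12.4% of all probes tested. In the coronal series fraction 9 held the highest level of 9 of the 45, 5 of the 28 and 2 of the 15. It held that of 8.5% of all probes and of 4 of the 5 genes tested here other than Top2a.

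**Figure D3:**
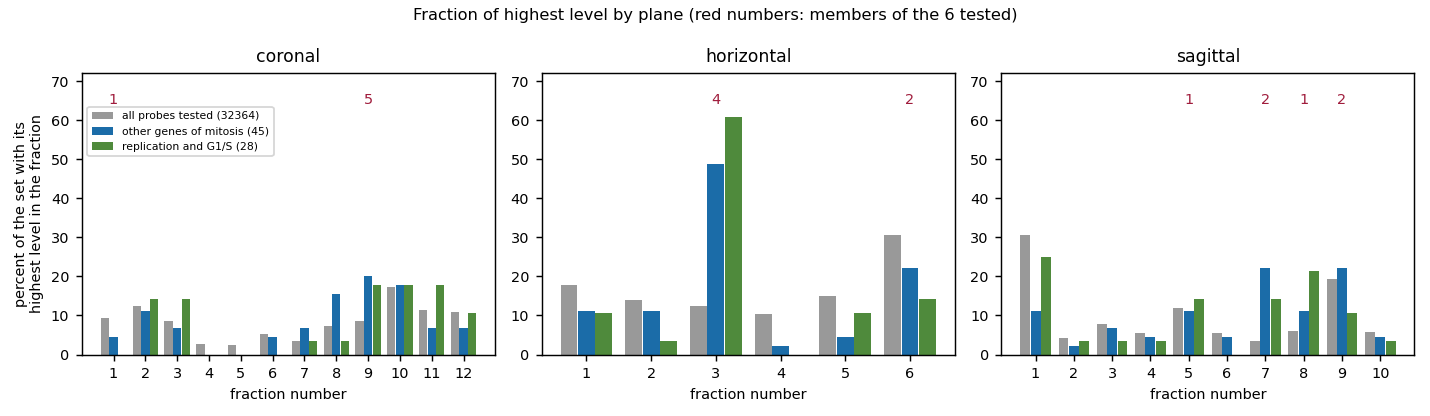
Percent of each set whose highest level fell in a given fraction, for all 32364 probes tested, the 45 other genes of mitosis and the 28 replication genes, with the number of the 6 genes tested here in red, Top2a included. Horizontal fraction 3 held 22 of the 45 and 17 of the 28, beside 12.4% of all probes.

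Lists of cell type markers give the setting of these profiles. The mean level of 12 migrating neuroblast and Dlx lineage markers rose from -2.62 in coronal fraction 2 to 0.76 in fraction 9 and 2.96 in fraction 12, each gene relative to its own coronal mean, so that it went on rising where the 5 genes fell from 1.45 in fraction 9 to -0.62 in fraction 12 (r = 0.41 between both profiles over 12 coronal, 0.85 over 6 horizontal and 0.40 over 10 sagittal fractions). All 12 markers were on the array and tested, and their summed linear level ran from 38.5 to 125.6 times the 75th percentile. Of the 12, 11 were called along the coronal series, beside 33.7% of all probes. The count of this list with the slide term, where 0.745% of all probes were called, is not given here. The 10 markers of subventricular stem cells were highest in fraction 11 (0.60), and the 10 markers of oligodendrocyte precursors in fraction 5 (0.34), with -0.17 in fraction 9. The stem cell markers went different ways. Among those called, the fitted maximum of Nes and Prom1 was in fraction 1, of Thbs4 in fraction 7 and of Vim, Hes5 and Fabp7 in fraction 12. The 7 microglia markers, all well above background on every array, were highest in coronal fraction 10 (0.95), with a summed level of 58.6 to 172.3. Their profile correlated with that of the 5 genes at r = 0.70 in the coronal, -0.05 in the horizontal and -0.55 in the sagittal series. In the coronal series the 6 dentate gyrus markers lay at their lowest in fraction 9 (-1.85, r = -0.90), whereas r was 0.78 in the horizontal and 0.38 in the sagittal series. This list shares Neurod1 with the cerebellar granule cell list, which peaked in the same caudal fractions, and its members went different ways, with the fitted maximum of Eomes and Calb2 in fraction 12 and that of Prox1 in fraction 3. The 6 markers of cerebellar granule cell precursors were lowest in fraction 9 (-0.31) and highest in fraction 12 (0.41), and they too went different ways. Among those called, the fitted maximum of Gli1 and Ptch1 was in fraction 1, of Gli2 in fraction 2 and of Atoh1 and Mycn in fraction 12. The 5 neuron markers were highest in fraction 9 (0.26, r = 0.26 over the coronal series). In the horizontal series the neuroblast list was highest in fraction 3 (0.89), as were the 5 genes (0.93), the stem cell list (0.21) and the dentate gyrus list (1.52). The cerebellar granule cell list (1.69) and the astrocyte list (0.18) were highest there too. For the astrocyte list r with the 5 genes was 0.86 in the horizontal, -0.83 in the coronal and -0.18 in the sagittal series. For the cerebellar granule cell list it was 0.48, -0.79 and 0.46. Which cell type carried the mitotic transcripts in any fraction was not tested.

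**Figure D4:**
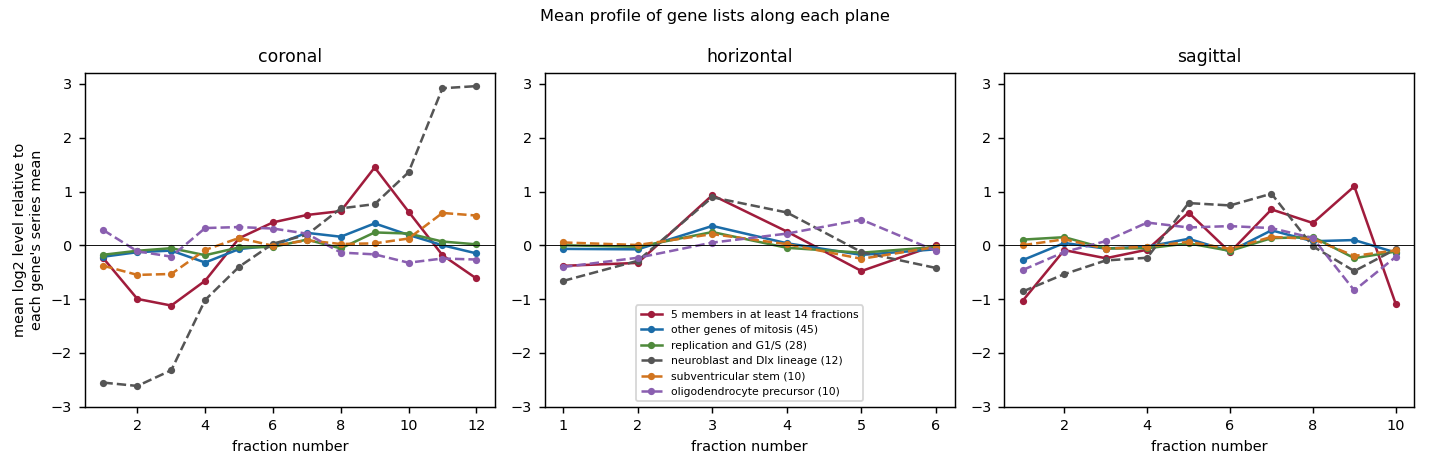
Mean log2 level of gene lists by fraction number in each plane, each gene taken relative to its mean over the series, for the 5 mitotic genes well above background in at least 14 fractions (Plk1 without its raised spot), other genes of mitosis, replication genes and markers of neuroblasts, subventricular stem cells and oligodendrocyte precursors. In the coronal series the 5 genes reached 1.45 in fraction 9, whereas the neuroblast list reached 2.96 in fraction 12.

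Genes most like the mean profile of those 5 were sought over the 28 fractions among 14603 symbols with a probe well above background in at least 14 fractions. The nearest were Cmtm4 (r = 0.74), Ube2c (0.74), Rrm2 (0.74), Prr7 (0.72), Uhrf1 (0.71), Gsx1 (0.68), Glipr1 (0.65), Gm16894 (0.64), Ccnb2 (0.63) and Macrod2 (0.62). With the raised Plk1 spot set to missing they were Ube2c (0.83), Uhrf1 (0.77), Gsx1 (0.76), Rrm2 (0.76), Drd1 (0.70), Rgs9 (0.69), Cwh43 (0.69), Adora2a (0.69), Six3os1 (0.68) and Padi6 (0.68), with 4 symbols in both sets, Ube2c, Rrm2, Uhrf1 and Gsx1. Of these 4, Ube2c, Rrm2 and Uhrf1 are on the lists of cell cycle genes given above, and Gsx1 is not. Drd1, Rgs9 and Adora2a of the second set are not on those lists either, and were highest in coronal fractions 9, 8 and 8. The share of listed genes among all symbols searched was not counted.

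The arrays had a 75th percentile signal of 135 to 574 and 24822 to 34240 detected probes, and 0 spots were saturated.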

How the data were processed

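Total RNA of 28 fractions was labelled with Cy3 and hybridised to 1-colour Agilent arrays, 1 per fraction. The deposited array files hold intensity values that the authors extracted with Feature Extraction 10.5.1.1, per the file headers, which subtracts the background of each spot. A deposited table of log2 values for 44721 probes matched the processed signal scaled to each array's 75th percentile but for an offset of -0.00758 to -0.00111. The other columns used, per the file headers, were flags and positions of spots.

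Here, outlier spots (108 to 176 per array) were left out, spots of a probe were averaged, and log2 signals were set relative to the 75th percentile. Probes with a share of 0.5 or more of flagged spots counted as well above background. Probe names were matched to symbols of a RefSeq table (GRCm38.p6, names only), for 27235 of 55681 probes (48.9%). Trends were fitted with limma 3.58.1 in R 4.3.3 (spline of 3 degrees of freedom, 2 for the horizontal series), over all probes that passed the filter. Simulated data were used to check the fits: of 50 probes given a coronal hump of 4 (log2) among 32364, 44 were called, and of 50 given one of 2, 25 were called, while in the horizontal fit 0 of 50 given 4 were called. A fold against a reading not well above background is a lower bound. The number of arrays limits the precision.

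The members, gene lists and tests were chosen with earlier results of these data known. Named genes were the 10 members, the 3 of each cell cycle list with the largest span or difference among those called in the coronal comparisons, and the 10 symbols most like the mean profile of the members. Alternatives were other scalings, normexp with an offset of 50, no filter on dim probes, the mean of all probes of a gene, the slide as a term or fractions of 1 slide, a stiffer curve, each fraction left out, the fraction number as a block, another detection flag and, chosen after seeing the data, the raised Plk1 spot set to missing. Probe sequences, protein sequences and probe coordinates were not used here.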

Additional observations from a re-analysis of the deposited data

Results flagged for a closer look

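In the horizontal and sagittal series, each of the 10 genes was examined for a fraction far from the others (Dixon's test, 20 profiles, of which chance flags about 1 in 20). The fractions of a series are different tissue, and none was repeated.

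Plk1 stood apart in sagittal fraction 5 at 7.65, where the next highest was -1.61 and the spots around it were raised, and in horizontal fraction 3 at -0.95, where the next was -2.18 and where Mki67, Top2a and Ccna2 were highest too. Aurkb stood apart in sagittal fraction 7 at -1.04, with -4.83 next, on a spot whose neighbours were not raised (median deviation 0.03). Top2a stood apart at the low end in sagittal fraction 2, at -6.92 with -5.56 next, on a reading that was not well above background.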

How the results depend on the processing

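The number of the 6 tested genes called along the coronal series was 5, beside 33.7% of all probes. It was 0 with the slide as an added term (0.745% of all probes), 3 with 1 spline degree of freedom fewer (38.5%) and 3 within fractions 3 to 10 (12.9%). Along the horizontal series it was 1 (15.8% of all probes), 4 with the array median (59.8%) and 2 with quantile normalization (21.2%). It was 0 with normexp (28%) and 0 with 1 degree of freedom fewer (0.00309%). Along the sagittal series it was 0, and it was 1 with normexp (Top2a, beside 44.2% of all probes), while with no filter on dim probes, where all 10 genes were tested, it was 2 (Cdk1 and Aurkb, neither among the 6), against 34.5% of all probes. Between series it was 0, and 1 (Mki67) with the slide as an added term. The fraction number as a replicate block in the comparison of series called 0 of 6 genes and 619 of all probes, but a fraction number names a different position in each plane and pairs nothing. Leaving out each fraction in turn gave 5 to 6 calls along the coronal series, Top2a and Ccnb1 among them, beside 24.5% to 34.4% of all probes. It gave 0 to 1 along the horizontal (0% to 17.8% of all probes) and 0 to 2 along the sagittal series (0% to 47.1%). The other comparisons gave 0, beside at most 12.2% of all probes. Where 0% of all probes were called, a count of 0 genes says nothing about them.

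Some uncalled differences turned sign. For Plk1 in the rostral split they were 0.14 with normexp and 0.71 with the slide term and within fractions 3 to 10, and -0.34 to 0.32 over fractions left out. In the medial split they were -0.47 for Top2a, -0.33 for Ccnb1 and -0.34 for Ccna2 with normexp, -0.14 for Ccnb1 with the mean of all probes, 0.38 for Birc5 with the array median, and -0.18 to 0.024 for Birc5 over fractions left out. The array median moved the median medial difference of all probes from -0.08 to 0.38. Of 90 comparisons of the highest fraction under other scalings, 70 gave the same fraction. With the more lenient flag of a positive and significant signal, Top2a was detected in 18 fractions, Cdk1 in 21, Aurkb in 10, Bub1 in 21 and Kif11 in 20. Genes near background have only bounds in most fractions. The cause of these shifts was not tested.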
